A study of Mus musculus with 8 samples.

Results

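The comparison set 2 mouse embryo libraries labelled CX45 against 2 libraries labelled 8C, 4 of the 8 libraries of the series. All were chosen by their labels, and 11853 of the 24791 genes in the table were tested, which reached 1 FPKM in at least 2 libraries of the series. FPKM is the number of fragments per kilobase of transcript, relative to the library's mapped fragments. All groups came from C57BL/6 mouse embryos, and the labels give no treatment, dose, time or embryo count. For 2C and 8C the 2-cell and 8-cell stage is understood here. The name CX45 is not spelled out in the labels, which also give no statement of which group is its control. Its title links RNA polymerase I activity to chromatin structure in embryos of mouse and human. The 2 libraries labelled 2C gave the second reference, so that a CX45 level could be placed between the 2 stages or outside the range of both. The 2 libraries of the fourth group, CX22, entered the estimate of the spread.

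A mouse embryo starts with transcripts that the oocyte stored. Most of these are degraded as the embryo's own genome is switched on at the 2-cell stage, when a short burst of stage-limited genes also appears. By the 8-cell stage the embryo transcribes genes for ribosomes, proteasomes and energy metabolism in bulk and begins to express regulators of the inner cell mass and of the trophectoderm, its outer epithelium. RNA polymerase I transcribes the ribosomal RNA precursor. Free ribosomal proteins such as Rpl5 and Rpl11 are known to bind Mdm2, the ligase that keeps the transcription factor p53 low.

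Sequencing depth, read from the step that 1 fragment makes in FPKM, was 17.8 and 20.2 M fragments in the 8C libraries, 10.98 and 12.6 M in CX45, and 11.97 and 12.8 M in 2C. On a transcript of 2 kb, 3 fragments correspond to between 0.074 and 0.154 FPKM across the libraries, a limit that covers counting error only. The CX45 libraries correlated with each other at r = 0.928 over genes, which are not independent, and with the 8C libraries at 0.890 to 0.901. With the 2C libraries the values were 0.573 to 0.597. A level above 10 FPKM in one replicate with 0 in its partner was found for 41 genes in CX45 and for 14 in 8C. In CX22, which entered the estimate of the spread, it was found for 286 genes, and its libraries correlated at r = 0.819. Genes at 1 FPKM or more numbered 9439 and 9792 in CX45, 8196 and 8151 in 8C and 8921 and 8935 in 2C, although 8C was the deepest group. The median log2 difference of all genes between CX45 and 8C was 0.31, and it was 0.00 after quantile normalization and 0.05 after upper-quartile scaling. Group medians of gene lists are therefore given beside that shift. In these bulk libraries fewer cells of a type and less RNA per cell cannot be told apart.

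In CX45, 54 genes rose and 24 fell against 8C (limma, Benjamini-Hochberg adjusted p under 0.05 and an absolute log2 difference of at least 1 on log2(FPKM + 1)), which was 0.658% of the genes tested. The higher calls were 0.456% and the lower calls 0.202% of the genes. The genes that rose included the p53 regulator Mdm2, the stress gene Trp53inp1, the kinetochore gene Spc25 and the oocyte transcripts Omt2a and Fbxw24. In 38 of the 78 called genes both libraries of CX45 or of 8C were listed at 0, 20 of them among the 24 that fell. Called genes that reached 1 FPKM in CX45 alone or in 8C alone passed the filter only through that group, which fixed their direction. Every called gene had an adjusted p between 0.0461 and 0.0491. With any 1 library of 8C, CX22 or CX45 left out, limma called 0 genes, with 1235 to 3219 at an unadjusted p under 0.05. It also called 0 after quantile and upper-quartile scaling, with 1810 and 2081 at that level, against 2283 in the fit reported. The same fit called 4398 genes between 8C and 2C, 37.1% of those tested, and 3538 between CX45 and 2C, 29.8%. Without 1 of the 8C libraries these counts were 1414 to 1485 and 1499 to 1522, and without 1 of the CX45 libraries the second was 1798 to 2077. These comparisons share their 8C, 2C or CX45 libraries with the first one.

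Because so few genes passed, each gene was also placed by its libraries alone, with no test. A gene was counted as apart from 8C where the CX45 and 8C libraries did not overlap and their means differed by at least 1 on the log2 scale. This held for 3045 genes, 25.7% of those tested. Among them, 1405 genes (11.9%) lay between the libraries of both stages, 998 of them above 8C and 407 below it. Another 1044 genes (8.81%) stood above every library of both stages and 122 (1.03%) below every one. The remaining 474 (4%) overlapped the 2C libraries. No minimum distance from 2C was asked, so a gene just beyond the 2C libraries also counts as above or below both. Of the 1044 genes above both stages, 328 were called against 2C by the test, and of the 122 below both, 24. Of the 2453 genes that had fallen from 2C to 8C by the test, 829 lay between the stages, and of the 1945 that had risen, 330. Of those above both stages, 956 were not called between the stages. The surplus of genes above both stages depended on scaling: quantile normalization gave 491 above and 333 below, and upper-quartile scaling 563 above and 229 below. The genes between the stages numbered 1354 and 1622 under these scalings. Their split into genes above and below 8C is given for FPKM as deposited only.

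**Figure D1:**
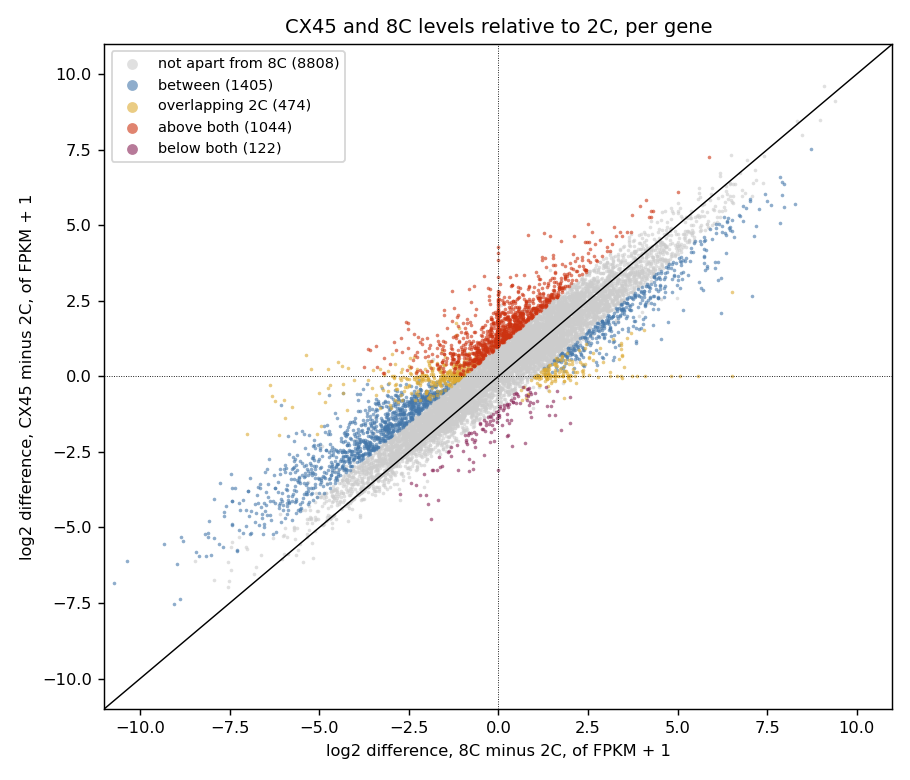
Each point is 1 of the 11853 genes tested. The x axis is the log2 difference in FPKM + 1 between 8C and 2C, the y axis that between CX45 and 2C, and both share the 2C libraries. Points on the diagonal have the same level in CX45 and 8C. Blue points (1405) lie between the stages, red ones (1044) above both, purple ones (122) below both and yellow ones (474) overlap 2C.

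A gene's stage position was set as 0 at the 2C mean and 1 at the 8C mean on the log2 scale. Over the 4398 genes called between 8C and 2C, the median position of CX45 was 0.817, with quartiles of 0.634 and 0.981. The CX45 libraries had medians of 0.829 and 0.811. Position was below 0.5 for 13.8% of these genes. For genes that had risen from 2C to 8C the median was 0.877, and for genes that had fallen it was 0.754. Since the 8C libraries had chosen these genes, the measure was repeated with 1 8C library as the scale and the other held out. With 8C replicate 1 as the scale, genes at least 1 log2 unit lower in 8C than in 2C had a median of 0.739 in CX45 and 1.000 in the held-out 8C replicate. Genes at least 1 log2 unit higher had medians of 0.907 and 0.997. With 8C replicate 2 as the scale the medians were 0.733 against 1.000 for lower genes and 0.884 against 0.949 for higher ones. With either 8C library as the scale, the distance from 8C was thus larger among genes that decline between the stages in the FPKM as deposited, and this order was reversed by further scaling. After quantile normalization, chosen after seeing the data, the CX45 medians with 8C replicate 1 as the scale were 0.880 for lower genes and 0.799 for higher ones. After upper-quartile scaling they were 0.819 and 0.771. With 8C replicate 2 as the scale they were 0.866 and 0.778, and 0.808 and 0.767. The held-out 8C replicate had medians of 0.961 to 1.000 in these. CX45 therefore lay short of the held-out 8C library in both sets under each scaling, and which set lay farther depended on the scaling.

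**Figure D2:**
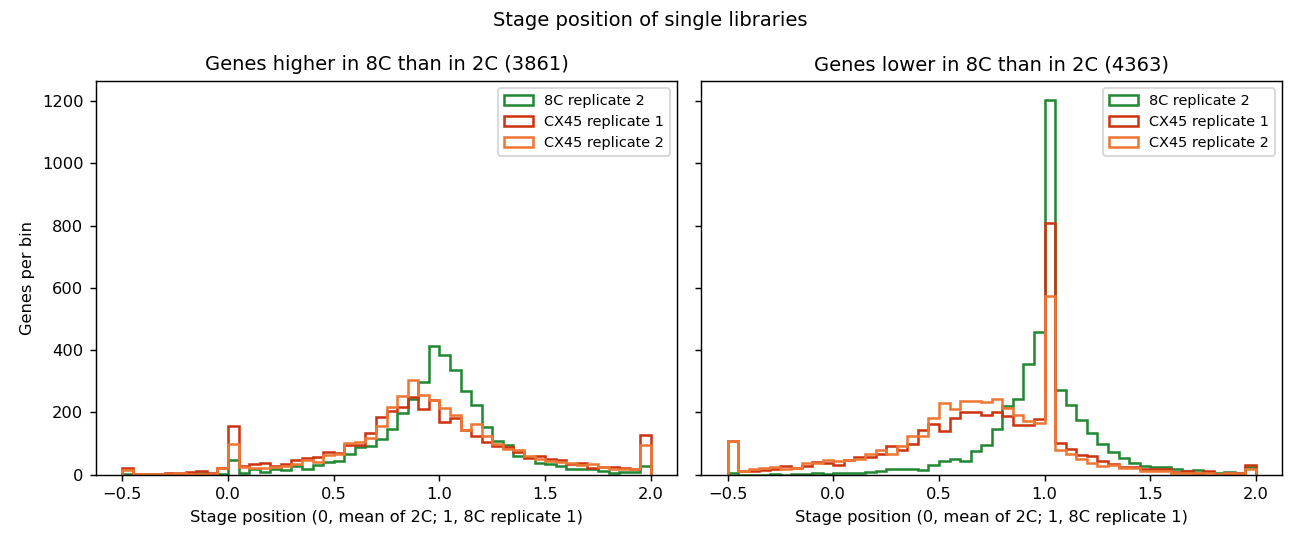
In FPKM as deposited, histograms give the number of genes by stage position in 3 single libraries, with 0 the 2C mean and 1 the level in 8C replicate 1. Values beyond -0.5 and 2 are drawn at those limits. The left panel holds 3861 genes at least 1 log2 unit higher in 8C replicate 1 than in 2C, the right panel 4363 lower ones, where both CX45 libraries sit left of 8C replicate 2.

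The gene lists differed in where their members stood, and the plot of shares by list gives them in order of their median. Members and lists were chosen with earlier results of these data known, so each list is described by counts and medians, with no test. The reference for every list is the same. Of all genes tested, 25.7% were apart from 8C, with 8.81% above both stages, 1.03% below both, 11.9% between them and 4% overlapping 2C. Calls made up 0.456% higher and 0.202% lower, and the median was 0.31. A gene can lie between the stages only where 2C and 8C differ, so lists that change strongly between them can hold more such genes.

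**Figure D3:**
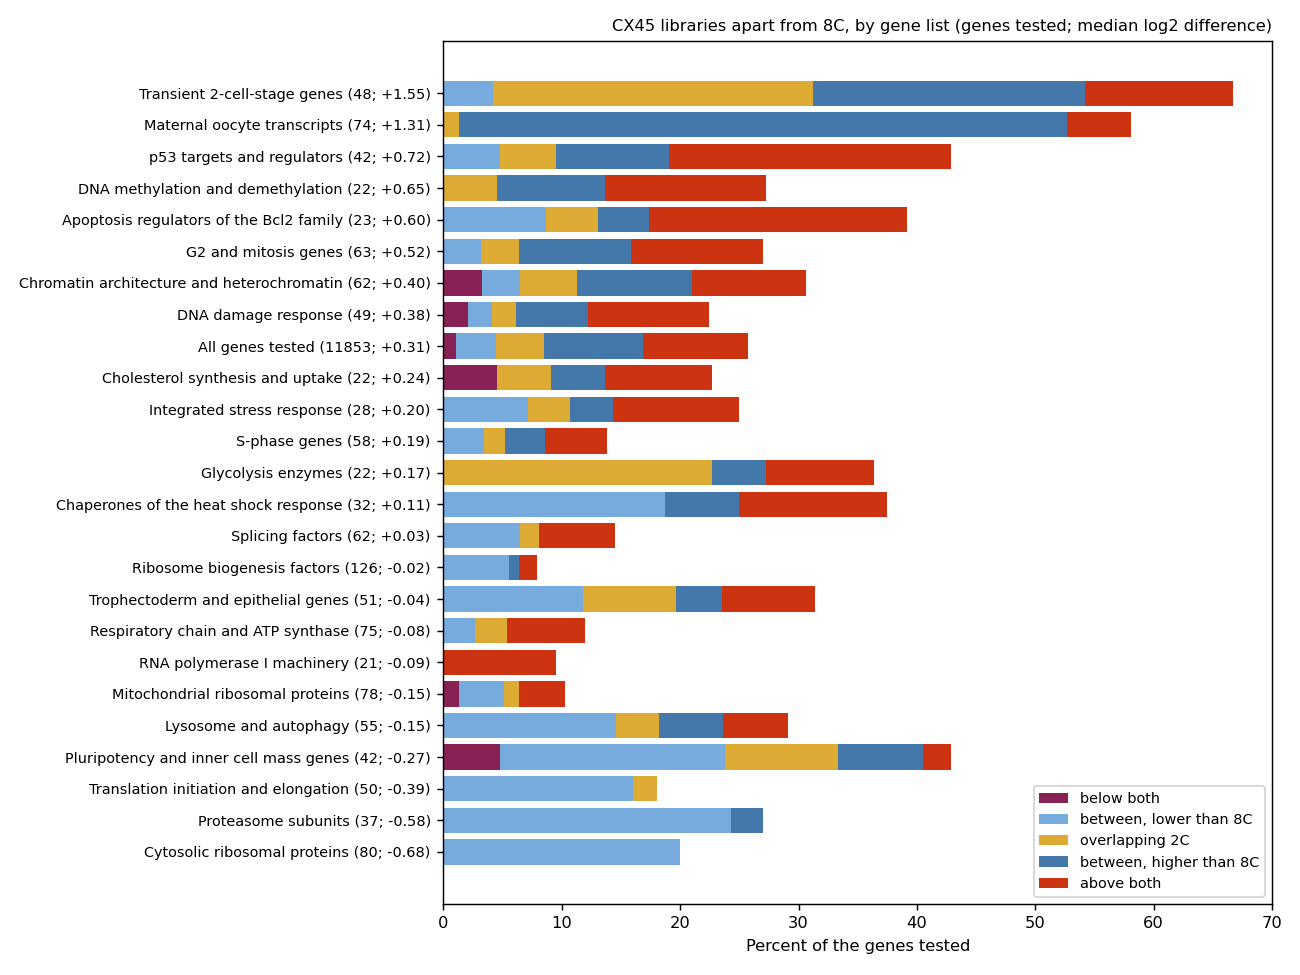
Bars give the percentage of the genes tested in a list whose CX45 libraries lay apart from the 8C libraries, split by place relative to both stages. Labels give the number of genes tested and the median log2 difference between CX45 and 8C. All genes tested stand at 25.7% with a median of 0.31, and maternal oocyte transcripts and transient 2-cell-stage genes at the top.

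Transcripts that the oocyte stores stood higher in CX45 than in 8C. Of 74 maternal transcripts tested, 2 rose (Omt2a and Fbxw24), none fell, and 38 (51.4%) lay between the stages, all of them above 8C. The median log2 difference was 1.31, against 0.31 for all genes. It was 0.89 after quantile normalization and 1.05 after upper-quartile scaling. The same list had a median of -4.27 between 8C and 2C. Over its 54 members called between the stages the median stage position was 0.70, against 0.754 for all genes that had fallen. Omt2a, an oocyte transcript on chromosome 9 (mm9, 78159779 to 78162604), stood at 579 and 808 FPKM in CX45, 50.7 and 45.6 in 8C, and 30570 and 33189 in 2C. Both CX45 libraries were above both 8C libraries and far below 2C, and the log2 difference to 8C was 3.80 ± 0.26 (SE; adjusted p = 0.0461 by limma). Its near-identical copy Omt2b makes the split of reads between them uncertain.

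Fbxw24, which encodes an F-box protein of the oocyte, stood at 84.1 and 118 FPKM in CX45, 14.3 and 18.99 in 8C, and 631 and 620 in 2C. It rose by 2.53 ± 0.27 on the log2 scale. Oosp1, an oocyte-secreted protein, was at 62.9 and 89.0 FPKM in CX45, 5.51 and 9.66 in 8C and 1693 and 1700 in 2C, and did not pass (adjusted p = 0.0519). Wee2, the oocyte kinase that holds the meiotic arrest, was at 6.95 and 6.71 FPKM in CX45 and at 0.058 and 0.63 in 8C. Both genes showed the pattern of the list, with CX45 libraries above 8C and below 2C. Dppa3, a maternal factor that the embryo goes on transcribing, had 26937 and 20843 FPKM in CX45 and 24827 and 18482 in 8C, and these overlapped.

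Other called genes that lay between the stages also declined from 2C to 8C. Pnrc1, a nuclear receptor coactivator, stood at 18.9 and 17.8 FPKM in CX45, 0 and 0.051 in 8C and 226 and 220 in 2C. Gdap1, a mitochondrial outer membrane protein, had 48.8 and 61.9 FPKM in CX45, 3.88 and 3.08 in 8C and 374 and 377 in 2C, a rise of 3.65 ± 0.24. Psip1, a chromatin-bound coactivator, had 80.6 and 88.7 FPKM in CX45, 4.91 and 9.84 in 8C and 719.5 and 695.5 in 2C. In all 3 genes the CX45 libraries were close to each other and held a level at least 1 log2 unit from either stage. Bmi1, a Polycomb subunit that sustains gene silencing, rose by 2.70 ± 0.26, with 59.6 and 78.8 FPKM in CX45 against 8.25 and 11.4 in 8C and 594 and 577 in 2C. Rmi1, which dissolves recombination intermediates, and Slx4ip, a partner of the nuclease scaffold Slx4, were listed at 0 in both 8C libraries. Rmi1 had 17.5 and 14.8 FPKM in CX45 and 25.7 and 25.3 in 2C. Slx4ip had 9.83 and 11.5 FPKM in CX45 and 42.7 and 42.0 in 2C.

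Genes of the 2-cell burst were also higher in CX45, but unevenly so between its libraries. Of 48 transient 2-cell-stage genes tested, 1 rose (Nat8f2) and none fell. In this list 13 members lay between the stages, 13 overlapped the 2C libraries and 6 stood above both stages. The median log2 difference was 1.55, and it was 1.92 with CX45 replicate 2 alone and 1.14 with replicate 1 alone. Nat8f2, an acetyltransferase family member, stood at 27.5 and 33.1 FPKM in CX45, 0.92 and 0.86 in 8C and 23.6 and 24.9 in 2C, a rise of 4.04 ± 0.31. Spz1, a transcription factor gene, had 64.7 and 63.2 FPKM in CX45 against 5.31 and 6.07 in 8C and 60.8 and 58.7 in 2C, and did not pass (adjusted p = 0.0583). Both were at or just above the 2C level in the 2 CX45 libraries alike.

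Zfp352, a retroposed zinc finger gene of the 2-cell stage, had 20.9 FPKM in CX45 replicate 1 and 179 in replicate 2, with 1.86 and 0.92 in 8C and 126 in each 2C library. Replicate 2 thus exceeded the 2C level and replicate 1 did not. Zscan4d, which acts on telomeres in 2-cell embryos and in rare stem cells, had 11.8 and 26.7 FPKM in CX45, 0 and 0.82 in 8C and 71.1 and 63.6 in 2C. Further members, chosen after their values were seen, were split the same way as Zfp352. Tcstv1 had 18.3 and 289 FPKM, Usp17lb 10.3 and 199, and Rfpl4b 9.30 and 151 in CX45 replicates 1 and 2. The 8C libraries held at most 1.03, 5.05 and 0.32 FPKM of Tcstv1, Usp17lb and Rfpl4b. These genes belong to families with near-identical copies, so their single values are uncertain, and none passed the test. Not every member was high: Calcoco2, also chosen after its values were seen, had 131 and 112 FPKM in CX45, below the 360 and 431 of 8C.

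**Figure D4:**
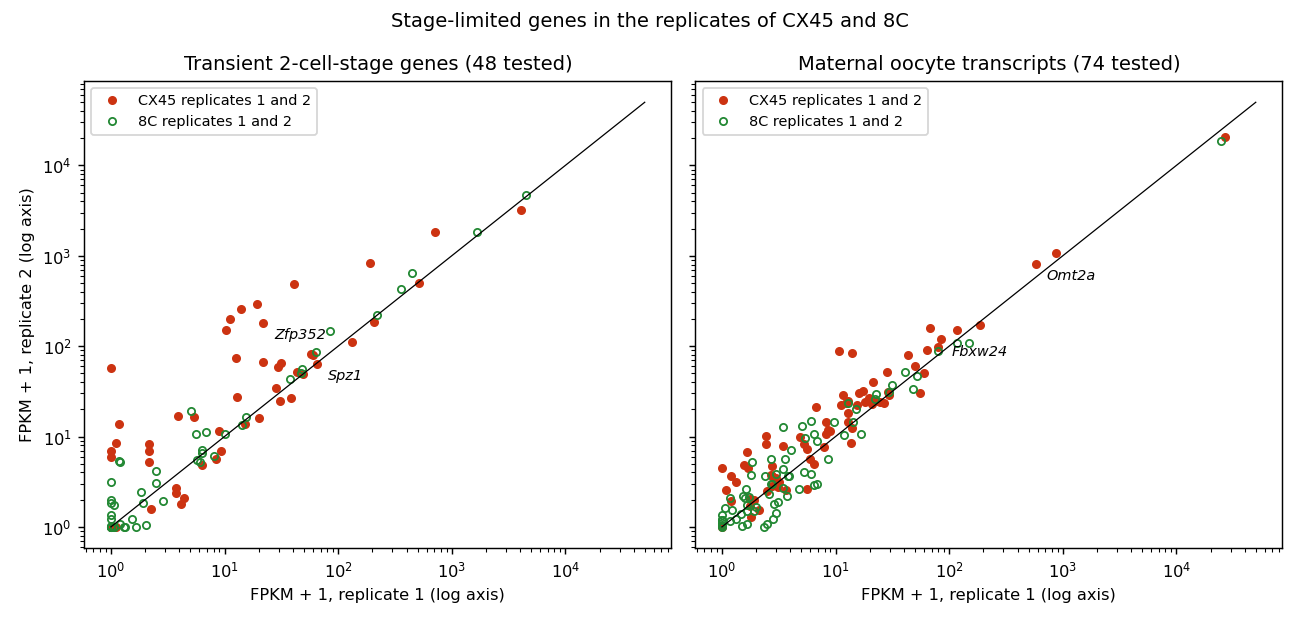
Each point is a gene tested, with FPKM + 1 in replicate 1 on the x axis and in replicate 2 on the y axis, both on log axes. Filled red points are CX45 and open green points 8C. Zfp352 (20.9 and 179 FPKM) and others of the 2-cell list lie above the diagonal in CX45, and Spz1 (64.7 and 63.2 FPKM) and the maternal transcripts Omt2a and Fbxw24 lie near it.

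Cytosolic ribosomal protein genes had a median below 8C, although most of them were not apart from it. Of 80 cytosolic ribosomal protein genes, none was called, 16 (20%) lay between the stages and 64 were not apart from 8C. All 16 were lower than in 8C, and none of the list stood above or below both stages. The median log2 difference was -0.68 against 0.31 for all genes, and it was -0.47 and -1.08 after quantile and upper-quartile scaling. Between 8C and 2C the list had a median of 4.41. Over its 76 members called between the stages the median stage position was 0.84, against 0.877 for all genes that had risen. At an unadjusted p under 0.05, 35 of the 80 were lower and 0 higher, against 508 lower and 1775 higher among all genes. The summed level of the list was 99040 and 103700 FPKM in CX45, 149500 and 144500 in 8C and 9001 and 9231 in 2C.

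Rpl5, the Mdm2-binding ribosomal protein on chromosome 5 (mm9, 108329547 to 108338024), stood at 330 and 333 FPKM in CX45, 882 and 1021 in 8C, and 9.59 and 10.1 in 2C. Its difference to 8C was -1.51 ± 0.18 and did not pass (adjusted p = 0.0556 by limma). Rpl11, which binds Mdm2 together with Rpl5, had 597 and 518 FPKM in CX45 and 887 and 850 in 8C, a smaller difference of -0.64 ± 0.28. Rps2, of the small subunit, was farther from 8C, with 2.997 and 10.4 FPKM in CX45, 84.4 and 156 in 8C and 0.17 and 1.09 in 2C. Rpl6, of the large subunit, had 455 and 493 FPKM in CX45 against 879 and 1059 in 8C. In all 4 genes both CX45 libraries were below both 8C libraries and above both 2C libraries. Ribosomal protein genes have many processed copies in the genome, and how reads were split among them is not given in the sources used here.

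Of 50 translation factors tested, 1 fell, Eif3j1, which was listed at 14.6 and 12.6 FPKM in 8C and at 0 in all CX45, CX22 and 2C libraries. It passed the filter on low values only through the 8C libraries, which set its direction in advance. Another 8 (16%) lay between the stages, all lower than in 8C, against 11.9% between among all genes, and 41 were not apart from 8C. The median was -0.39, and -0.35 and -0.80 after quantile and upper-quartile scaling. The 34 members called between the stages had a median stage position of 0.83, against 0.877 for all genes that had risen. Eif5a, which relieves stalled ribosomes, had 177 and 342 FPKM in CX45, 1243 and 2866 in 8C and 55.9 and 49.5 in 2C. Eif2b3, a subunit of the exchange factor that recharges eIF2, had 52.5 and 85.5 FPKM in CX45 and 235 and 272 in 8C.

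Among 37 proteasome subunits, none was called and 10 (27%) lay between the stages, 9 lower and 1 higher than 8C, against 11.9% between among all genes. The other 27 were not apart from 8C, and the median of -0.58 was -0.47 and -0.98 under the scalings. The 29 members called between the stages had a median stage position of 0.82, against 0.877 for all genes that had risen. Psmc3, an ATPase of the proteasome base, had 15.5 and 14.8 FPKM in CX45, 47.9 and 52.2 in 8C and 12.4 and 14.1 in 2C, so CX45 was next to 2C. Psme4 was the member above 8C. It encodes an alternative activator of the proteasome and had 65.5 and 82.7 FPKM in CX45, 20.7 and 16.0 in 8C and 138 and 143 in 2C.

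The machinery around ribosomal RNA was near the 8C level. Of 21 RNA polymerase I genes, none was called, 19 were not apart from 8C and 2 stood above both stages. Their median log2 difference was -0.09, and it was -0.08 after quantile normalization and -0.49 after upper-quartile scaling. Between 8C and 2C the median was 2.24. Polr1a, the largest subunit of RNA polymerase I, had 5.18 and 6.41 FPKM in CX45 and 5.57 and 7.84 in 8C. Polr1b, the second largest subunit, had 11.9 and 16.9 FPKM in CX45 and 18.2 and 14.2 in 8C. Rrn3, which recruits the polymerase to ribosomal DNA, had 278 and 264 FPKM in CX45 and 354 and 330 in 8C, and 45.3 and 43.9 in 2C. Polr1a and Polr1b overlapped between the groups, whereas Rrn3 did not, although its difference of -0.33 ± 0.25 was small.

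Ubtf, which binds ribosomal DNA along its length, had 15.6 and 16.5 FPKM in CX45, 24.5 and 33.3 in 8C and 0.15 and 0.23 in 2C. Of 126 ribosome biogenesis factors, none was called, 116 were not apart from 8C, 8 lay between the stages and 2 stood above both. Their median was -0.02, and -0.21 and -0.42 under the other scalings. Nop58, a core protein of the particles that methylate ribosomal RNA, was among the lower ones, with 130 and 120 FPKM in CX45, 325 and 302 in 8C and 27.6 and 26.2 in 2C. The methyltransferase Fbl had 50.6 and 46.0 FPKM in CX45 and 69.2 and 73.1 in 8C. Nucleolin (Ncl) had 74.5 and 101 FPKM in CX45 and 127 and 118 in 8C. Utp23, a factor of the small subunit processome, stood above both stages with 140 and 133 FPKM in CX45, 53.6 and 45.0 in 8C and 21.3 and 22.4 in 2C, and did not pass (adjusted p = 0.0678).

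Regulators of the first cell lineages were mixed. Of 42 pluripotency and inner cell mass genes, none was called, 11 lay between the stages (8 lower and 3 higher than 8C), 4 overlapped 2C, 2 stood below both and 1 above both. The median was -0.27, and -0.66 and -0.64 under the other scalings. Nanog, the factor of the pluripotent inner cells, had 6.53 and 4.54 FPKM in CX45, 20.3 and 18.3 in 8C and 0.083 and 0.18 in 2C. Pou5f1, which encodes Oct4, was listed at 0 and 2.16 FPKM in CX45 and 7.78 and 16.2 in 8C. Fbxo15, a target of Oct4 and Sox2, had 572 and 766 FPKM in CX45 and 1708 and 1661 in 8C. The 3 genes were lower in both CX45 libraries than in either 8C library. Fgf4, the growth factor of the inner cells, stood instead above both stages, with 34.9 and 29.8 FPKM in CX45, 2.68 and 7.80 in 8C and 0 in 2C.

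Of 51 trophectoderm and epithelial genes, none was called, 8 lay between the stages, 4 overlapped 2C, 4 stood above both stages and 35 were not apart from 8C. Their median was -0.04, and -0.51 and -0.29 under quantile and upper-quartile scaling. The named members lay on both sides of 8C. Lgals1, a galectin, had 164.5 and 67.1 FPKM in CX45, 4.06 and 3.94 in 8C and 127 and 132 in 2C (adjusted p = 0.0504). Pard3, a polarity protein, had 9.22 and 9.35 FPKM in CX45, 2.68 and 1.75 in 8C and 82.6 and 76.4 in 2C. Cldn4, a tight junction protein, had 1.95 and 1.13 FPKM in CX45 and 15.4 and 36.0 in 8C. Krt8, an epithelial keratin, had 1.46 FPKM and 0 in CX45 and 5.77 and 6.45 in 8C. Tead4, the factor that starts the trophectoderm programme, was near 8C, with 14.5 and 17.7 FPKM in CX45, 20.04 and 24.1 in 8C and 0 in both 2C libraries. Tfap2c had 28.1 and 19.9 FPKM in CX45 and 31.1 and 42.2 in 8C, and the adhesion gene Cdh1 9.39 and 4.51 against 11.3 and 12.2. The keratin gene Krt18 had 8.55 and 0.79 FPKM in CX45 and 5.797 and 1.76 in 8C, which overlapped.

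Above both stages stood, first, regulators and targets of p53. Of 42 genes tested in that list, 2 rose (Mdm2 and Trp53inp1) and none fell. A further count by library put 10 (23.8%) above both stages, 6 between them and 2 at the 2C libraries, against 8.81% above both among all genes. The median log2 difference was 0.72, against 0.31 for all genes, and 0.24 and 0.43 under quantile and upper-quartile scaling. At an unadjusted p under 0.05 in limma, 18 of the 42 were higher and 1 lower. Among all 11853 genes tested, 1775 were higher and 508 lower at that level.

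Mdm2 lies on chromosome 10 (mm9, 117125931 to 117147814). It stood at 123 and 88.5 FPKM in CX45, 9.18 and 12.2 in 8C and 23.9 and 25.2 in 2C, and rose by 3.19 ± 0.28 against 8C. Against 2C it rose by 2.05 (adjusted p = 0.0174). Trp53inp1, a p53 target that promotes autophagy and cell death, lies on chromosome 4 (mm9, 11083588 to 11101526). Its values were 71.8 and 78.9 FPKM in CX45, 6.78 and 3.38 in 8C and 60.6 and 60.7 in 2C, a rise of 3.71 ± 0.35 that brought it just above the 2C level. Trp53 itself had 9.02 and 12.1 FPKM in CX45, 1.36 and 3.51 in 8C and 2.68 and 2.86 in 2C, and did not pass (adjusted p = 0.147).

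Btg2, an antiproliferative p53 target, had 12.01 and 21.4 FPKM in CX45, 0.073 and 0.45 in 8C and 5.21 and 5.66 in 2C (adjusted p = 0.0583). Mdm4, the partner of Mdm2, lay between the stages with 88.9 and 117 FPKM in CX45, 18.97 and 22.9 in 8C and 710 and 716 in 2C. Cdkn1a, the p53 target that halts the cell cycle as p21, had 118 and 160 FPKM in CX45, 68.3 and 77.4 in 8C and 12.1 and 11.7 in 2C. Its libraries did not overlap, but the difference of 0.91 ± 0.32 was under 1 (adjusted p = 0.232). Members chosen after their values were seen stood above both stages too. The cyclin gene Ccng1 had 20.3 and 30.1 FPKM in CX45 and 3.79 and 3.11 in 8C. The phosphatase gene Ppm1d had 14.6 and 13.5 FPKM in CX45 and 2.48 and 0.73 in 8C. Sfn, which encodes 14-3-3 sigma, went the other way, with 17.6 and 56.1 FPKM in CX45 and 158 and 299 in 8C.

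Of 23 apoptosis regulators of the Bcl2 family and its caspases, 1 rose, Bmf, and 5 (21.7%) stood above both stages, against 8.81% of all genes, with a median of 0.60 that was 0.25 and 0.20 under the other scalings. At an unadjusted p under 0.05 in limma, 7 of the 23 were higher and 2 lower, against 1775 higher and 508 lower among all 11853 genes. Bmf, a cell death activator, was listed at 0 in all 2C and 8C libraries and at 1.61 and 1.28 FPKM in CX45. It passed the filter on low values only through the CX45 libraries, which set its direction in advance. Bcl2l11, which encodes the death activator Bim, had 53.5 and 43.1 FPKM in CX45, 9.22 and 9.30 in 8C and 7.47 and 7.96 in 2C (adjusted p = 0.0727). Gadd45b, a stress-induced gene of the Gadd45 family, had 45.8 and 107 FPKM in CX45, 4.996 and 4.01 in 8C and 7.89 and 9.53 in 2C. In Bmf, Bcl2l11 and Gadd45b every CX45 library exceeded every library of both stages. Bad, also a death activator, was lower than in 8C, with 6.46 and 18.4 FPKM in CX45, 45.8 and 68.6 in 8C and 0 in 2C (adjusted p = 0.147). Bcl2l10, an oocyte survival factor, had 11.7 and 23.4 FPKM in CX45, 2.598 and 4.62 in 8C and 639 and 630 in 2C.

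Chaperones stood on both sides of the 8C level. Of 32 tested, none was called, 4 stood above both stages and 8 lay between them, 6 lower and 2 higher than 8C. The median was 0.11, and -0.03 and -0.29 under quantile and upper-quartile scaling, so its sign depended on the scaling. Hspa5, the chaperone BiP of the endoplasmic reticulum, lies on chromosome 2 (mm9, 34627610 to 34632049). It had 155 and 148 FPKM in CX45, 43.2 and 43.6 in 8C and 39.0 and 39.3 in 2C, a difference of 1.78 ± 0.20 that missed the threshold (adjusted p = 0.0519). The small heat shock protein gene Hspb1 also stood above both, with 160 and 172 FPKM in CX45 and 50.8 and 25.1 in 8C. The cytosolic co-chaperone genes Dnajb6 and Dnaja1 were lower than in 8C. Dnajb6 had 202 and 181 FPKM in CX45, 501 and 582 in 8C and 61.4 in each 2C library. Dnaja1 had 249 and 257 FPKM in CX45 and 506 and 520 in 8C.

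The promoters of Hspa5, Hsp90b1 and Cdkn1a are shown because they carry letters of the elements through which these stress pathways are known to act. The sequences are the 250 bases before the start site from RefSeq (GRCm38.p6), at chr2:34771840-34772089 (plus strand), chr10:86705445-86705694 (minus strand) and chr17:29090729-29090978 (plus strand). Capitals in Hspa5 and Hsp90b1 mark the fixed letters of the endoplasmic reticulum stress element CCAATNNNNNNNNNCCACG on either strand. Capitals in Cdkn1a mark the core letters of a p53 element, CATGNNNNNNCATG.
Hspa5: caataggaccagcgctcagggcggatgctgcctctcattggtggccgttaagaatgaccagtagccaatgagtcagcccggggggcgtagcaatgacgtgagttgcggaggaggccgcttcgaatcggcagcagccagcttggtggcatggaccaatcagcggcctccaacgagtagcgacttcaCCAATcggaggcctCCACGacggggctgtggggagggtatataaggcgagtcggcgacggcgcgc
Hsp90b1: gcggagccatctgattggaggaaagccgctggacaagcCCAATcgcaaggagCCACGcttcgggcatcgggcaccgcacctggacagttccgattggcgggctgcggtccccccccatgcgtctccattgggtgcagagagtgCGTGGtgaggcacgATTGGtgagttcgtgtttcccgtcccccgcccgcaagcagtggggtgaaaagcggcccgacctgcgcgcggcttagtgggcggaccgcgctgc
Cdkn1a: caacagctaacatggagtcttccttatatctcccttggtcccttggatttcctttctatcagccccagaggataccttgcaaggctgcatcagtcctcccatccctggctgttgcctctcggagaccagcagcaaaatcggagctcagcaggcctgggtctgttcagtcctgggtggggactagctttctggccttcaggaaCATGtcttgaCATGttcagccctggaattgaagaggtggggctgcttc

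The stress element was found in 39 of 32851 promoters of 300 bases (250 before and 50 after the start site), 0.119%, searched on both strands. Among 27 chaperone genes with a promoter in that table, 2 held it, Hspa5 and Hsp90b1. Hsp90b1, the Hsp90 of the endoplasmic reticulum and chosen after its values were seen, had 43.2 and 39.1 FPKM in CX45, 11.7 and 7.61 in 8C and a mean of 70.9 in 2C. It thus lay between the stages, whereas Hspa5 stood above both. The p53 letters were found in 0.712% of all promoters and in 1 of 38 genes of the p53 list, Cdkn1a. Mdm2 has an entry in that table without these letters. The heat shock element, searched as GAANNTTCNNGAA, was in 0.603% of all promoters and in 5 of the 27 chaperone genes. Those 5 were Hspd1, Hspe1, Dnajb6, Hsph1 and Chordc1. Hsph1 stood above both stages and Dnajb6 below 8C, whereas Hspd1, Hspe1 and Chordc1 were not apart from 8C. The promoters of Hspd1 and Hspe1 overlap, so the same bases count for both genes. Shares within a list are per gene, and those of all promoters are per promoter entry. Of 839 genes above both stages with a promoter in that table, 5 (0.596%) held the p53 letters, against 0.712% of all promoters. The heat shock element was in 2 of them (0.238%, against 0.603%), and the endoplasmic reticulum stress element in 3 (0.358%, against 0.119%). A match describes these letters and is not a measured binding site.

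Of 63 genes of G2 and mitosis, 1 rose, Spc25, 7 (11.1%) stood above both stages, near the 8.81% of all genes, and 8 lay between them. The median was 0.52, and 0.10 and 0.15 under the other scalings. Spc25, an outer kinetochore protein on chromosome 2 (mm9, 69031952 to 69044270), had 803 and 848 FPKM in CX45, 65.7 and 107 in 8C and 347 and 332 in 2C, a rise of 3.28 ± 0.31. Pttg1, securin, which guards sister chromatid cohesion, had 2740 and 2856 FPKM in CX45, 502 and 623 in 8C and 6086 and 6165 in 2C, and missed the threshold (adjusted p = 0.0515). Of 58 S-phase genes none was called and 3 (5.17%) stood above both, with a median of 0.19 that was -0.18 and -0.22 under the scalings. Among the 3 was the replication licensing inhibitor Gmnn, with 1244 and 1312 FPKM in CX45 and 696 and 566 in 8C.

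Among 62 chromatin genes, 3 rose (Bmi1, Setdb1 and Rec8), where 0.456% of all genes rose. By library, 6 (9.68%) stood above both stages, near the 8.81% of all genes, 2 below both and 8 between them. The median was 0.40, against 0.13 and 0.00 under the other scalings. Setdb1, which methylates histone H3 at silenced repeats, was listed at 0 in both 8C libraries and stood at 10.1 and 16.1 FPKM in CX45 and 8.46 and 7.75 in 2C. A listed 0 can be a failed estimate, so no fold is given for Setdb1. Rec8, the meiotic cohesin subunit, was at 1.28 and 1.11 FPKM in CX45 and listed at 0 in the libraries of both stages. It passed the filter on low values only through the CX45 libraries, which set its direction in advance. Among genes outside these lists, the tubulin gene Tubb5 rose by 3.73 ± 0.30, with 96.3 and 132 FPKM in CX45, 6.39 and 9.002 in 8C and 61.7 and 61.1 in 2C.

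The test against both stages at once was passed by 19 genes (0.16%), 17 higher and 2 lower than in 8C and in 2C. Beside Mdm2, Bmf and Rec8 the higher ones included Cd164 and Rilpl2, both chosen after their values were seen. Cd164, a membrane sialomucin, had 262 and 244 FPKM in CX45, 69.8 and 73.1 in 8C and 78.7 and 75.7 in 2C. Rilpl2, which regulates transport in cilia, had 49.7 and 48.6 FPKM in CX45, 6.49 and 7.16 in 8C and 11.8 and 11.1 in 2C. Several others were at under 10 FPKM in CX45 and at or near 0 in the libraries of both stages. Bmf, Rec8, Rab10os and several of these reached 1 FPKM in the CX45 libraries alone. They passed the filter on low values only through CX45, so their direction was set in advance. Rab10os, an opposite-strand transcript, was listed at 0 in the 2C and 8C libraries and at 23.0 and 11.2 FPKM in CX45. No source used here states that strand was kept, so its reads and those of its sense partner cannot be told apart.

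Genes with the widest gap above both stages, among those whose highest group averaged 10 FPKM or more and with no predicted name, included some listed at or near 0 in both. Tmod1, a cap of actin filaments, was listed at 0 in every 2C and 8C library and at 25.02 and 13.6 FPKM in CX45. Upp1, uridine phosphorylase, had 11.9 and 13.8 FPKM in CX45 and at most 0.40 in the libraries of both stages (adjusted p = 0.0507). Pyy, a gut peptide hormone, had 40.7 and 14.8 FPKM in CX45 and at most 0.97 elsewhere among the stage libraries. The 3 genes were not called. Pdgfrl had 25.2 and 97.9 FPKM in CX45 and at most 3.15 in the stage libraries, so its libraries differed widely from each other. The others of the 10 widest within that limit were Gpr50, Armc12, Sct, Tmem184c, Gadd45b and Rab10os. Of the 1044 genes above both stages, 64 were listed at 0 in all 4 stage libraries, and the median gap to the nearest stage library was 0.77 on the log2 scale. Those 64 passed the filter on low values through CX45 or CX22 libraries, and Upp1 through the CX45 libraries alone.

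**Figure D5:**
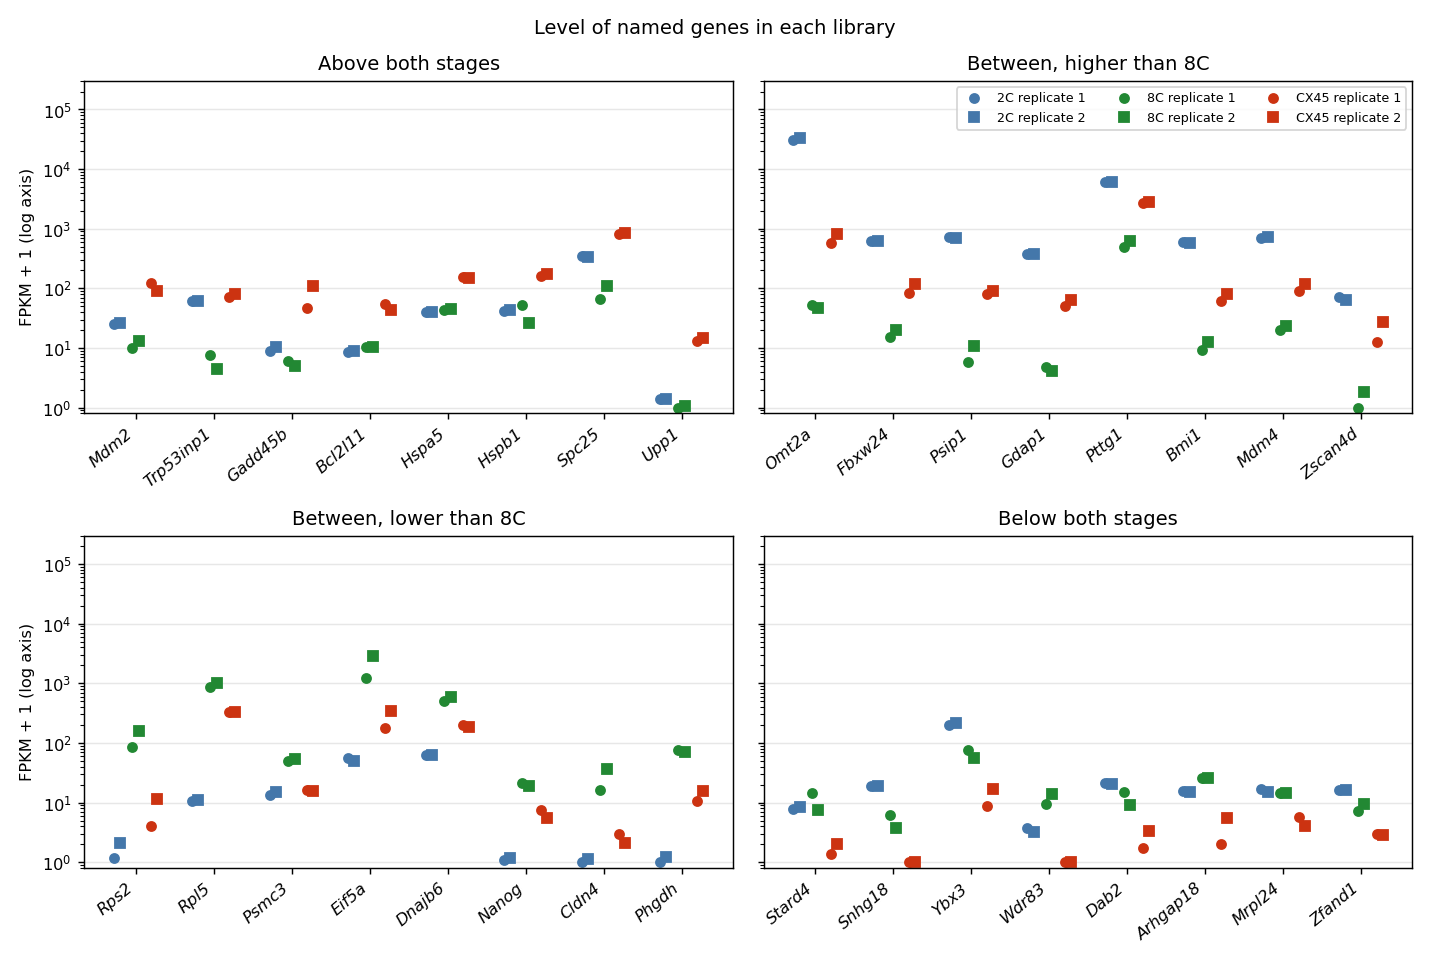
Points give FPKM + 1 on a log axis in each library of 2C (blue), 8C (green) and CX45 (red), with circles for replicate 1 and squares for replicate 2. Panels group genes by where the CX45 libraries lay. Mdm2 stands at 123 and 88.5 FPKM in CX45 above both stages, Omt2a at 579 and 808 between them, Rpl5 at 330 and 333 below 8C, and Ybx3 at 7.77 and 15.9 below both.

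In FPKM as deposited, far fewer genes stood below both stages than above, 122 against 1044. The counts were 333 against 491 after quantile normalization and 229 against 563 after upper-quartile scaling. Ybx3, a cold shock domain protein that binds messenger RNA, lies on chromosome 6 (mm9, 131314876 to 131338468). It had 7.77 and 15.9 FPKM in CX45, 74.8 and 54.6 in 8C and 200 and 213 in 2C, a difference to 8C of -2.41 ± 0.43 (adjusted p = 0.0843). Dab2, an endocytic adaptor, had 0.72 and 2.31 FPKM in CX45, 14.3 and 8.15 in 8C and 20.5 and 19.7 in 2C. Arhgap18, a GTPase-activating protein, had 1.00 and 4.58 FPKM in CX45, 24.7 in each 8C library and 14.5 and 14.3 in 2C. In each of these 3 genes both CX45 libraries stood below the lowest stage library, and the CX45 libraries differed from each other by more than the 8C libraries did on the log2 scale.

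Stard4, a carrier of cholesterol, had 0.36 and 1.02 FPKM in CX45 and between 6.63 and 13.4 in the 4 stage libraries. Mrpl24, of the mitochondrial ribosome, had 4.75 and 3.01 FPKM in CX45 and between 13.4 and 15.8 in those libraries. Snhg18, a noncoding host of small nucleolar RNA, was listed at 0 in CX45 and at 5.17 and 2.73 FPKM in 8C. Among genes below both whose highest group averaged 10 FPKM or more and with no predicted name, the others of the 10 widest were Wdr83, Atpsckmt, Zfand1 and Taz. Wdr83, a WD repeat scaffold, fell against both stages, being listed at 0 in both CX45 libraries and at 8.46 and 13.2 FPKM in 8C and 2.69 and 2.201 in 2C. Acyp2 was the other gene lower in both tests, with 0.14 and 0.12 FPKM in CX45, 4.09 and 4.41 in 8C and 3.22 and 3.71 in 2C. It was chosen after its values were seen.

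Most genes called lower in CX45 were listed at the level of 2C. For those at 1 FPKM or more in 8C alone, the filter on low values fixed this in advance. Of the 24 that fell, 21 overlapped the 2C libraries, 20 were listed at 0 in both CX45 libraries and 19 at 0 in both 2C libraries. Mettl5, which methylates 18S ribosomal RNA, was listed at 88.5 and 94.1 FPKM in 8C and at 0 in every 2C, CX22 and CX45 library. Exosc9, a subunit of the RNA exosome, was listed at 52.6 and 40.5 FPKM in 8C and at 0 in the same 6 libraries. Chpt1, an enzyme of phosphatidylcholine synthesis, was listed at 40.3 and 26.8 FPKM in 8C and likewise at 0. Mettl5, Exosc9 and Chpt1 passed the filter on low values only through the 8C libraries, as did Ly6g6e, Kdelr3 and Eif3j1. A level in CX45 below 8C and at that of 2C was therefore fixed in advance for all of them. Exosc9 is used by every cell, and a listed 0 can be a failed estimate, so no fold is given for these genes. Ube3a, a ubiquitin ligase, was the reverse case, listed at 0 in both 8C libraries and at 17.5 and 11.3 FPKM in CX45, next to 15.0 and 15.4 in 2C.

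Several metabolic genes were at the 2C level as well. Of 22 glycolysis genes, 5 (22.7%) overlapped 2C, against 4% of all genes, and 1 rose, Eno1. The median of 0.17 was 0.02 and -0.15 under the scalings. Eno1 was listed at 0 in both 8C libraries, at 1.13 and 2.54 FPKM in 2C and at 3.10 and 2.70 in CX45, just above both stages. A listed 0 can be a failed estimate. Hk2, a hexokinase, had 0.58 and 1.06 FPKM in CX45, 12.4 and 5.52 in 8C and 1.13 and 1.02 in 2C. Ldhb, a lactate dehydrogenase subunit, lay between the stages with 57.6 and 80.0 FPKM in CX45, 11.2 and 19.7 in 8C and 368 and 403 in 2C. Respiratory chain genes were close to 8C, with 66 of 75 not apart and a median of -0.08. Among 55 lysosome and autophagy genes, 11 lay between the stages, 8 of them lower than 8C, and 1 rose, Npc1. It was at 1.92 and 1.4998 FPKM in CX45 and listed at 0 in 8C. Npc1 passed the filter on low values only through the CX45 libraries, which set its direction in advance. Phgdh, the first enzyme of serine synthesis, had 9.79 and 14.9 FPKM in CX45, 74.0 and 69.2 in 8C and 0 and 0.21 in 2C.

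Counts in the remaining lists are again to be read against the 8.81% above both stages and the 25.7% apart from 8C among all genes. Of 28 genes of the integrated stress response none was called, 3 stood above both stages and 3 lay between, and the median of 0.20 was -0.16 and -0.11 under quantile and upper-quartile scaling. Ppp1r15a, which restores translation after stress, had 22.2 and 34.3 FPKM in CX45, 6.58 and 8.75 in 8C and 5.82 and 6.51 in 2C. Of 49 DNA damage genes none was called and 5 stood above both stages, with a median of 0.38 that was -0.09 and 0.07 under the scalings. Top2a, which untangles DNA before division, had 62.8 and 74.5 FPKM in CX45 and 24.9 and 27.2 in 8C. Ppp1r15a and Top2a were higher in each CX45 library than in any library of the 2 stages.

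Of 22 DNA methylation genes none was called and 3 stood above both, with a median of 0.65 that was 0.12 and 0.38 under the scalings. Dnmt3l, a cofactor of new DNA methylation, had 49.1 and 44.5 FPKM in CX45 and 17.8 and 28.3 in 8C. Of 62 splicing factors none was called, 4 stood above both stages and 4 lay between, with a median of 0.03 (-0.09 and -0.37). Of 22 cholesterol genes none was called, 2 stood above both and 1 below both, with a median of 0.24 (-0.34 and -0.02). The one below was Msmo1, a sterol oxidase, at 8.80 and 16.2 FPKM in CX45 and 56.3 and 75.2 in 8C. Insig1, which restrains cholesterol synthesis, had 177 and 81.5 FPKM in CX45, 15.8 and 14.6 in 8C and 125 and 118 in 2C. Of 78 mitochondrial ribosomal proteins none was called, 3 stood above both and 1 below, with a median of -0.15 (-0.33 and -0.54). Mrps6, one of those above, had 344 and 465 FPKM in CX45 and 105 and 126 in 8C.

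Markers of other cell types were checked beside these results. Of 16 cumulus and granulosa markers 5 passed the filter on low values, and none lay apart from 8C. Amhr2 was present in all groups, with 25.1 and 9.83 FPKM in CX45, 10.4 and 19.3 in 8C and 3.29 and 3.16 in 2C. Foxl2, Star and Adamts1 were at 1.86 to 3.46 FPKM in 2C and at most 0.55 in 8C and CX45. Amh, Fshr, Lhcgr and Inha were at 0 in the 2C, 8C and CX45 libraries. Of 13 blood and immune markers 3 passed, and all 3 stood above both stages. Their summed level was 302 and 368 FPKM in CX45, 13.3 and 31.9 in 8C and 109 in each 2C library. Hba-a1, an alpha globin, made up nearly all of it, with 286 and 347 FPKM in CX45, whereas the beta globins Hbb-bs and Hbb-bt were at 0 in the CX45 libraries and Hbb-b1 was at 0.144 and 0.375 FPKM. The other members above both stages were the macrophage genes Lyz2 and Cd68. Lyz2 had 9.61 and 7.45 FPKM in CX45, 0 in both 8C libraries and 0 and 1.91 in 2C. Cd68 had 5.38 and 12.7 FPKM in CX45, 2.96 and 3.21 in 8C and 3.17 and 3.16 in 2C. The leukocyte marker Ptprc was at 0.07 FPKM and 0. Of 10 sperm transcripts 4 passed and 1 stood above both, Ldhc, with 57.0 and 30.1 FPKM in CX45 and 2.44 and 8.62 in 8C, whereas Tnp1, Tnp2 and Acr were at 0 in CX45. The part of such transcripts in the results was not tested.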

How the data were processed

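RNA of 8 mouse embryo libraries, 2 each of 2C, 8C, CX22 and CX45, was measured by Smart-seq, in which full-length cDNA is amplified, on a BGISEQ500 machine, per the labels' protocols. The submitters' processing notes name the build mm9, HISAT2 (listed with version 4.8.2) and Cufflinks 2.2.1. For the alignment settings, annotation and read type: not given in the sources used here. Values deposited by the authors were FPKM per transcript entry, and reads were not reprocessed. Of 41876 entries, 41783 matched a gene symbol, and the FPKM of a gene's entries were summed to 24791 genes. Entries that did not match held between 0.006% and 0.212% of a library's FPKM. FPKM keeps no counts, but the steps between low values implied the depth of each library, with 97.5% to 99.2% of the values checked within 0.05 of a whole number of fragments. The cDNA was amplified and carried no molecular identifiers, so these depths cover counting error only.

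The 2C libraries differed by about the sampling noise and were averaged as 1 sample. Their median chi-square was 1.11 times chance, against 29.19 in 8C, 52.14 in CX45 and 99.1 in CX22. Values of log2(FPKM + 1) of all groups, 7 samples with 3 residual degrees of freedom, were fitted with limma 3.58.1 in R 4.3.3, with a trend on mean level and two-sided tests. The fold changes understate changes of low genes. Calls needed an absolute log2 difference of at least 1 and an adjusted p (Benjamini-Hochberg) under 0.05. The labels do not say that replicates came from separate embryos, so p-values measure only how far these libraries spread, possibly for technical reasons. The fit was tested on simulated data.

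Members and the 27 gene lists were chosen with earlier results of these data known. Named genes were taken from the 12 highest and 12 lowest called with at least 10 FPKM, no overlap and no predicted name, the 10 with the widest gap above and below both stages under the same limits on level and name, the 10 farthest between them, the 4 smallest p-values of each list, and 24 genes set by name. Those outside this rule are marked as chosen after their values were seen. Alternatives covered the pseudocount, filter, scaling, entries per gene, treatment of the 2C libraries, trend, groups fitted and each library left out. Promoters came from RefSeq (GRCm38.p6) and were matched by symbol. Coordinates of genes are those of the table.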

Additional observations from a re-analysis of the deposited data

How the results depend on the processing

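The number of genes called between CX45 and 8C, 78, depended on nearly every setting tried. It was 183 with a pseudocount of 0.1, 272 with a mean of at least 5 FPKM, 12 with the largest entry of a gene, 1038 with the 2C libraries kept separate and 2 without the trend. With no filter on low values, with quantile normalization, with upper-quartile scaling, with CX22 left out of the fit and with CX45 and 8C alone it was 0, although 2691, 1810, 2081, 3182 and 3140 genes had an unadjusted p under 0.05 in limma. Without 1 library it ranged from 0 to 78. The same direction was found for 76 of the 78 with the largest entry of a gene and for 40 with a mean of at least 5 FPKM. Genes that a fit did not test can lower these counts, so they do not show that any gene reversed. In every other fit all 78 kept their direction. Called genes with a mean between the stages, 29, numbered 88, 188, 3 and 601 under the first 4 of these settings, and those called outside both, 19, numbered 47 with a pseudocount of 0.1, 1 with the largest entry and 260 with the 2C libraries separate. Both were 0 under no filter, both scalings, CX22 left out and no trend, and ranged from 0 to 29 and from 0 to 20 without 1 library.

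Differences between the replicates of a group correlated at -0.00 to 0.108 across pairs of groups, with the highest value for 8C with CX45. Whether same-numbered libraries share a batch or a collection was not tested, and the main fit did not pair them. With a replicate block and the 2C libraries separate, 709 genes were called between CX45 and 8C, 6036 between CX45 and 2C, 6631 between 8C and 2C, 414 between the stages and 166 outside both. The 2C libraries kept separate without the block gave 6101 for CX45 against 2C and 6693 for 8C against 2C. Without 1 library these ranged from 1499 to 4930 and from 1414 to 5618.

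The median stage position of 0.817 moved little. It was 0.799 with a mean of at least 5 FPKM, 0.836 and 0.794 under quantile and upper-quartile scaling, 0.840 with CX22 left out, 0.804 with genes chosen by 8C replicate 2, and 0.792 to 0.840 without 1 library. The placement by libraries was repeated under alternatives chosen after seeing the data. Genes above both stages numbered 528 with a mean of at least 5 FPKM, 491 and 563 under quantile and upper-quartile scaling and 1063 to 1590 without 1 library. Genes below both numbered 258 with a pseudocount of 0.1, 68 with a mean of at least 5 FPKM, 333 and 229 under the scalings and 128 to 355 without 1 library. Those overlapping 2C numbered 234 with a mean of at least 5 FPKM and 146 to 550 without 1 library. The genes between the stages stayed within 1149 to 2046 in all of these. The cause of these changes was not tested. With 2 libraries a group, calls rest on a spread shared with CX22.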
